A study of Mus musculus with 48 samples.

Results

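The clustered protocadherins are neural cell adhesion proteins encoded by 3 neighbouring gene clusters on mouse chromosome 18, Pcdha, Pcdhb and Pcdhg. The family was chosen with earlier results of these data known. All probes whose gene name on the array begins with Pcdha, Pcdhb or Pcdhg were then taken, whatever their values. This gave 38 of the 55681 probes that are not controls. They carry 35 of the 34844 gene names on the array: 9 probes for 7 Pcdha genes, 22 probes for 22 Pcdhb genes and 7 probes for 6 Pcdhg genes. The RefSeq gene table for GRCm38 lists 14, 22 and 22 genes in these clusters, so the Pcdhb cluster was covered in full and the others in part.

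Each clustered protocadherin carries extracellular cadherin repeats that bind the identical isoform on a facing membrane. A neuron transcribes a small set of isoforms, chosen at promoters bound by CTCF and cohesin, and the combination acts as a surface code by which the branches of 1 neuron recognise and avoid each other. In Pcdha and Pcdhg, each variable exon, which encodes the outer part, is spliced to constant exons that give all isoforms of the cluster the same cytoplasmic tail, whereas a Pcdhb gene has no constant exons. The C-type isoforms at the end of the Pcdha and Pcdhg clusters (Pcdhac1, Pcdhac2, Pcdhgc3, Pcdhgc4 and Pcdhgc5) are less subject to this random choice and are used more widely among neurons.

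Medial prefrontal cortex (mPFC) and blood of female C57BL/6J mice, 17 weeks old, were profiled on one-colour Agilent arrays, with 24 arrays per tissue and 1 array per mouse and tissue. Control mice had a sham operation and no stress, CUMS mice had a sham operation and chronic ultra-mild stress, OVX mice had their ovaries removed and no stress, and OVX+CUMS mice had both, with 6 mice in each group. Ovariectomy is used as a model of menopause, and it removes all ovarian hormones rather than estrogen alone. A level below is the log2 of the background-subtracted intensity minus the log2 of the 75th percentile of the same array, so that 0 marks that percentile and 1 unit is a doubling. Levels of different probes cannot be set against each other, because probes differ in their response.

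The 24 mPFC arrays had 75th percentiles of 572 to 689 and the 24 blood arrays of 54.9 to 192 in arbitrary intensity units, and no spot was saturated. The arrays of each tissue came on 3 slides of 8. All 6 control mice were on slide 1, all 6 OVX+CUMS mice on slide 3, CUMS mice on slides 1 (2 mice) and 2 (4 mice), and OVX mice on slides 2 (4 mice) and 3 (2 mice). No slide held both control and ovariectomized mice, so the OVX effect was estimated across slides. In mPFC all 7 neuronal marker genes (Snap25, Syt1, Rbfox3, Tubb3, Slc17a7, Gad1 and Gad2) were detected, and in blood 2 of them were. The 5 erythroid markers were all detected in blood, and 4 of them in mPFC. Other brain markers were detected in blood as well, with all 6 oligodendrocyte, 4 of 5 microglial and 2 of 5 astrocyte genes.

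A probe was called detected in a tissue when it was well above background on all 24 arrays and exceeded an intensity of 50 on at least 2. In mPFC 27 of the 38 probes were detected, for 25 genes, against 50.9% of all probes on the array. These were 7 of 9 Pcdha probes, 16 of 22 Pcdhb probes and 4 of 7 Pcdhg probes. The 11 probes that were not detected were the second Pcdha8 probe (A_55_P2106586), Pcdhac1, Pcdhb1, Pcdhb2, Pcdhb5, Pcdhb8, Pcdhb11, Pcdhb19, Pcdhga1, Pcdhga5 and Pcdhga10. They were well above background on 6 to 23 mPFC arrays, with median intensities of 15.1 to 30.6, so they were dim and not shown to be absent. The probes' GC content ran from 31.7% to 55% both among the detected and among the undetected ones.

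In blood 4 of the 38 probes were detected, against 37.3% of all probes. These were Pcdha8 (A_55_P2106584), Pcdhb12, Pcdhb18 and Pcdhga9 (A_55_P1961863), all of which were detected in mPFC as well. A further 4 probes were well above background on 13 to 23 blood arrays: Pcdhac1 and Pcdhgc5 on 23 each, Pcdhac2 (A_55_P1963533) on 14 and Pcdhb14 on 13. Of the other probes, 19 were well above background on 1 to 6 blood arrays and 11 on 0. Pcdhac1 was the only member well above background on more arrays in blood (23) than in mPFC (12), with median intensities of 29.4 and 20.1. This C-type isoform's probe (chr18:37249950-37250009) starts at base 160 of its transcript, and in mPFC it was above background in 4 control, 3 CUMS, 3 OVX and 2 OVX+CUMS mice. In blood the shared Pcdha probe A_55_P1963533 was above background in 6 control, 4 CUMS, 1 OVX and 3 OVX+CUMS mice, and Pcdhb14 in 1, 3, 3 and 6. The plot of arrays above background shows most probes to the right in mPFC and to the left in blood.

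**Figure D1:**
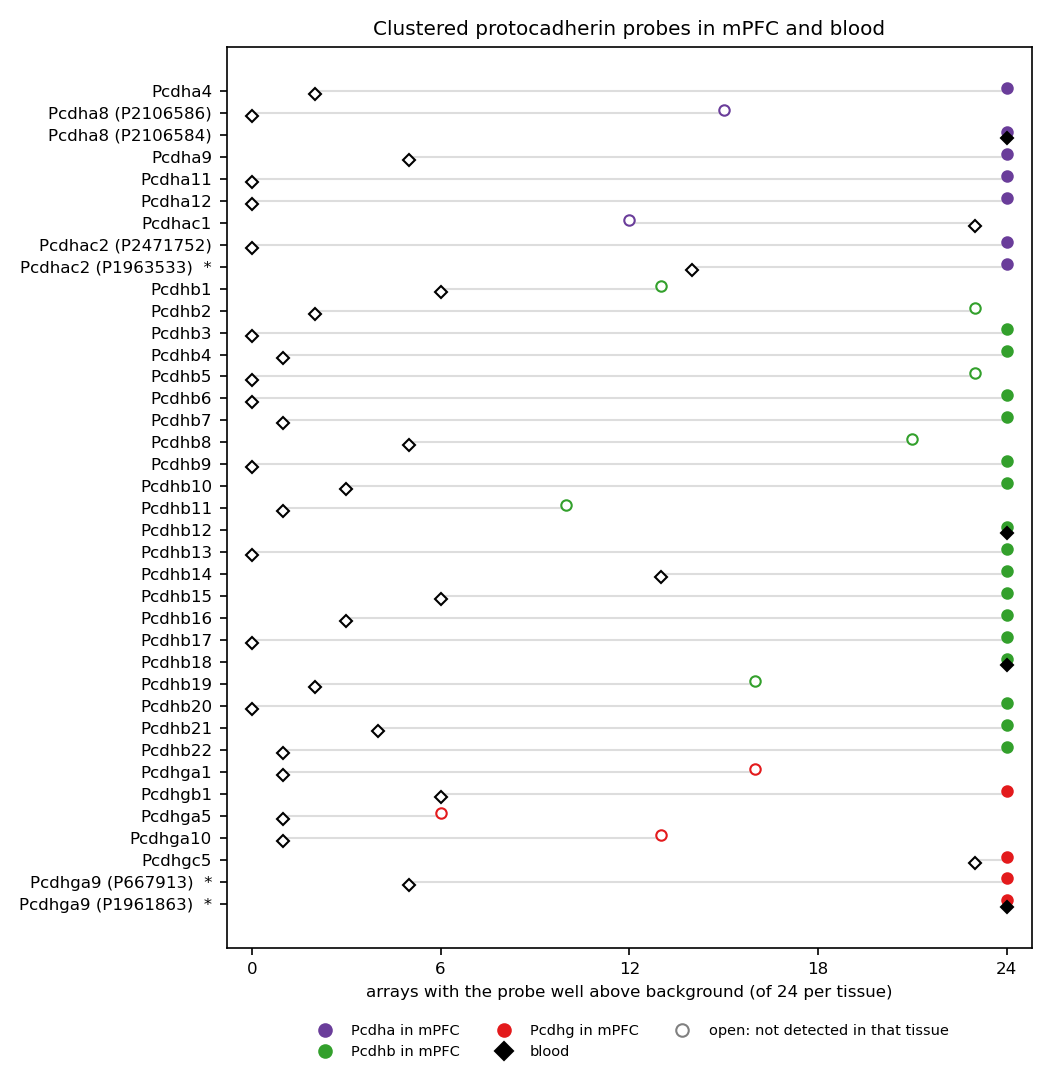
Number of arrays, of 24 per tissue, on which each of the 38 clustered protocadherin probes was well above background in mPFC (circles, coloured by cluster) and blood (diamonds), ordered along the chromosome within each cluster; filled symbols are probes called detected in that tissue, the shortened probe name separates probes of 1 gene, and stars mark probes in the shared 3′ part. Of the 38 probes, 27 are filled in mPFC and 4 in blood.

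Several probes do not read 1 isoform. The Pcdhac2 probe A_55_P1963533 (mm9, chr18:37347235-37347294) is listed with transcripts of Pcdha4, Pcdha9, Pcdhac1 and Pcdhac2 and lies 41548 bases beyond the other Pcdhac2 probe, A_55_P2471752 (chr18:37305687-37305745). Likewise, both Pcdhga9 probes (A_52_P667913 at chr18:37999725-37999784 and A_55_P1961863 at chr18:38001378-38001437) are listed with transcripts of 4 genes, and the nearer of them lies 20480 bases beyond the Pcdhgc5 probe. These 3 probes lie in the shared 3′ part of their clusters, so they report on Pcdha or Pcdhg transcripts together rather than on Pcdhac2 or Pcdhga9 alone. The Pcdha8 probe A_55_P2106584 lies in the variable part but is listed with Pcdha4, Pcdha7, Pcdha8 and the read-through gene Gm37013, and the Pcdha4 probe with Pcdha4 and Gm37013. The remaining 33 probes, among them the whole Pcdhb cluster, are each listed with 1 RefSeq gene.

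The spread between mice differed among the shared 3′ probes. The residual SD within groups was 0.06 for Pcdhac2 A_55_P1963533 and 0.05 for Pcdhga9 A_55_P1961863, lower than in all but 1.51% and 0.811% of the detected probes. For Pcdhga9 A_52_P667913 it was 0.23, at percentile 76.5. Across the 27 detected members it ran from 0.05 to 0.36, with a median of 0.16 against 0.15 over all detected probes, and was highest for Pcdha11. The least variable pair was bright, with median intensities of 12300 and 53900. Pcdha11 ran from -3.39 to -1.85 among control mice alone, and its OVX effect of 0.02 had the widest interval among the members not called (95% confidence interval -0.26 to 0.31).

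The OVX effect asks how ovariectomized mice differed from sham-operated mice, averaged over both stress levels. In mPFC, Pcdhb9 and Pcdhgc5 were called higher with OVX and Pcdhgb1 lower, in a fit that leaves slide out. The other 24 detected members did not pass the test. The 3 of 27 called compare with 30.9% of all detected probes. By direction, 2 members were called higher against a background of 19.1%, and 1 lower against 11.7%. The lower one, Pcdhgb1, passed the filter only through control mice, so its call and its place in the counts were not independent of that. With slide as a block 0 of all 28358 detected probes were called. The median difference of the members was 0.03 log2, and that of all detected probes 0.04. Without stress, OVX minus control called 0 members higher and 2 lower, against 5719 and 3790 of all 28358 detected probes. The 2 were Pcdhgb1 (-0.66, limma adjusted p = 0.00573), which passed the filter only through control mice, and Pcdhb17 (-0.18, 0.0146). Pcdhb9 (0.26, 0.0627) and Pcdhgc5 (0.15, 0.206) were not called there. That contrast leaves slide out too, and no slide held both groups. In such bulk tissue, fewer cells of a type and less RNA per cell cannot be told apart.

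Pcdhb9 (A_51_P483878, chr18:37562726-37562785) encodes a Pcdhb isoform, which has the variable region and no shared tail. Its level ran from -2.99 to -2.73 with a median of -2.92 in control mice, from -3.50 to -2.61 (median -2.76) in CUMS mice, from -2.84 to -2.46 (median -2.58) in OVX mice and from -2.73 to -2.48 (median -2.60) in OVX+CUMS mice. The 6 OVX+CUMS values all lay above the 6 control values, with the edges meeting near -2.73, while OVX mice overlapped control mice and CUMS mice overlapped every group. The OVX effect was 0.27 ± 0.08 log2 (SE, n = 24), or 1.2-fold, with a limma adjusted p of 0.00998. It was 0.15 after normexp background correction (limma adjusted p = 0.00929) and 0.13, no longer called, with E1A spike-in scaling (0.335). The limma CUMS effect was 0.02 ± 0.08 (adjusted p = 0.899).

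Pcdhgc5 (A_55_P2250164, chr18:37979245-37979304) is a C-type isoform, the last variable exon of the Pcdhg cluster. The probe starts at base 45 of its transcript and was well above background on 23 of 24 blood arrays as well. Its level ran from -3.20 to -2.74 (median -2.92) in control mice, from -2.98 to -2.74 (median -2.84) in CUMS mice, from -3.09 to -2.47 (median -2.80) in OVX mice and from -2.78 to -2.50 (median -2.60) in OVX+CUMS mice. All groups overlapped, and OVX+CUMS mice were the highest by median. The OVX effect was 0.20 ± 0.06 (1.15-fold, limma adjusted p = 0.0202). The call was lost with spike-in scaling (0.06, limma adjusted p = 0.613) and with scaling by detected probes (0.17, 0.0716). The limma CUMS effect was 0.14 ± 0.06 with an adjusted p of 0.18, and it was the only CUMS effect of a member with an unadjusted p under 0.05.

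Pcdhgb1 (A_55_P2067719, chr18:37842433-37842492) is a B-type isoform of the Pcdhg cluster. Its level ran from -4.09 to -2.81 (median -3.86) in control mice, from -4.59 to -3.95 (median -4.18) in CUMS mice, from -4.56 to -4.13 (median -4.31) in OVX mice and from -4.69 to -3.97 (median -4.21) in OVX+CUMS mice. Control mice were the highest by median, and no OVX mouse reached the lowest control mouse, while CUMS and OVX+CUMS mice overlapped control mice. The OVX effect was -0.34 ± 0.12 (0.789-fold, limma adjusted p = 0.0364). This was the dimmest detected member, with a median intensity of 34.8, and it exceeded 50 on 2 arrays, both from control mice. It therefore entered the test through the group in which it was high, and its call and its place in the count of 27 were not independent of that. The call was lost in 10 of the 22 fits without 1 array in which the probe was tested, and without control replicate 1 or 5 it was not tested. After normexp background correction the OVX effect was -0.07 (limma adjusted p = 0.393).

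**Figure D2:**
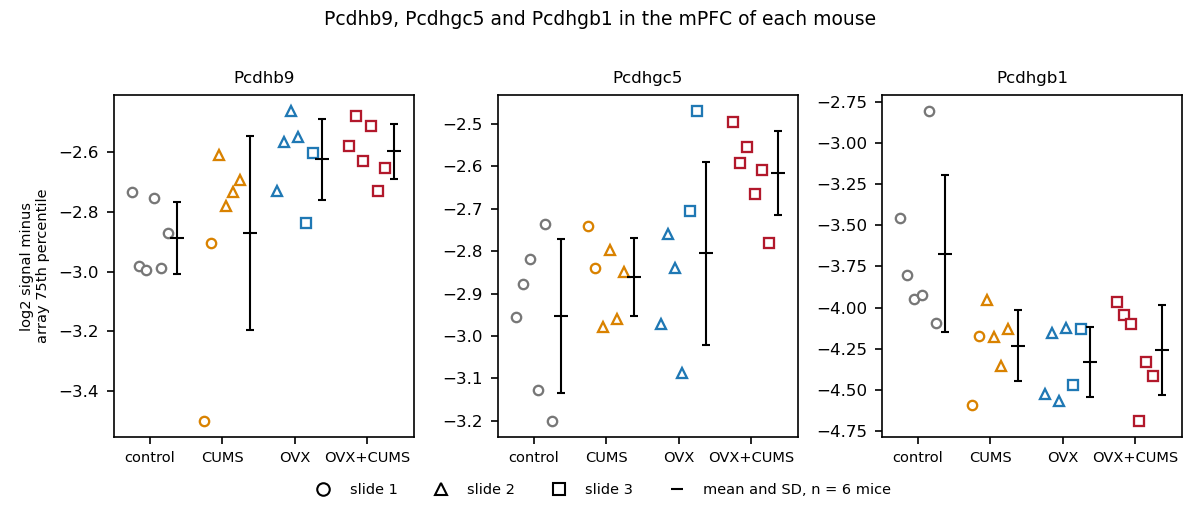
Level in the mPFC of each mouse (log2 intensity minus the array's 75th percentile) of the 3 members called for the OVX effect, with the slide of each array as the symbol and the mean and SD of 6 mice in black; replicate order along the axis has no meaning and each panel has its own scale. For Pcdhgc5 the 2 OVX arrays of slide 3 lie above the 4 of slide 2, and for Pcdhgb1 the control mice lie highest.

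For Pcdhgc5 and Pcdhb9 the level differed between slides within a group. For Pcdhgc5 the 4 OVX arrays on slide 2 averaged -2.91, close to the -2.90 of the 4 CUMS arrays on that slide, whereas the 2 OVX arrays on slide 3 averaged -2.59, close to the -2.62 of the OVX+CUMS arrays there. For Pcdhb9 the 2 CUMS arrays on slide 1, with the lower at -3.50, averaged -3.20 and the 4 on slide 2 averaged -2.70. The 6 control arrays on slide 1 averaged -2.89, and the OVX arrays -2.58 on slide 2 and -2.72 on slide 3. For Pcdhgb1 the 2 CUMS arrays on slide 1 averaged -4.38, below the control mean of -3.67 on the same slide, and the OVX arrays averaged -4.34 on slide 2 and -4.30 on slide 3. With slide as a block the limma OVX effect was 0.03 for Pcdhb9 (adjusted p = 0.984), 0.05 for Pcdhgc5 (0.968) and -0.52 for Pcdhgb1 (0.791), and 0 of the 28358 detected probes were called, with 1880 at an unadjusted p under 0.05. Within a group some members were split by slide. The 2 CUMS arrays of slide 1 lay below all 4 of slide 2 in 18.5% of members (Pcdha4, Pcdha8, Pcdha12, Pcdhac2 A_55_P2471752 and Pcdhb9) and in 27% of all detected probes, and above them in 7.41% of members and 18% of probes. The 2 OVX arrays of slide 3 lay above all 4 of slide 2 in 18.5% of members and in 10.9% of probes, and below them in 7.41% and 12.7%. Slide 2 allowed CUMS and OVX mice to be compared on 1 slide, 4 against 4, and there CUMS minus OVX was -0.13 for Pcdhb9, 0.02 for Pcdhgc5 and 0.19 for Pcdhgb1, with limma adjusted p-values of 0.378, 0.931 and 0.5. In that comparison 0 members and 0.0423% of all detected probes were called, with 3 members at an unadjusted p under 0.05. The OVX effect and the slide cannot be told apart for control and OVX+CUMS mice, which shared no slide.

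By cluster, the OVX effect in mPFC was called for 0 of 7 Pcdha probes, 1 of 16 Pcdhb probes and 2 of 4 Pcdhg probes. Of all detected probes 30.9% were called, and 4 Pcdhg probes are too few to set that cluster apart. The median differences were 0.02, 0.03 and 0.13 log2, against 0.04 over all detected probes. Above 0 were 6 of 7, 12 of 16 and 3 of 4 differences, as were 17876 of all 28358. Within Pcdhg, Pcdhgc5 and both Pcdhga9 probes lay above 0 and Pcdhgb1, which passed the filter only through control mice, below. Of these 4 probes, 2 lie in the shared 3′ part and describe no single gene. The confidence intervals (95%) of the 24 members that were not called lay between -0.26 and 0.39 log2 in this fit, which leaves slide out. With slide as a block some of their OVX effects lay outside that range. They were -0.58 ± 0.17 for Pcdha4 and -0.38 ± 0.12 for the Pcdha8 probe A_55_P2106584 (limma adjusted p = 0.496 and 0.512).

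Among the Pcdha probes the largest OVX differences were those of the Pcdhac2 variable-exon probe (A_55_P2471752) and of Pcdha12. Pcdhac2 is the C-type isoform of the Pcdha cluster that serotonergic neurons are known to need for the spacing of their axons. The variable-exon probe had medians of -1.09, -0.83, -0.91 and -0.88 in control, CUMS, OVX and OVX+CUMS mice, and an OVX effect of 0.14 ± 0.09 (limma adjusted p = 0.25). With slide as a block the sign turned, to -0.43 ± 0.13 (limma adjusted p = 0.512). Its CUMS arrays were split by slide, with means of -1.47 over the 2 on slide 1 and -0.79 over the 4 on slide 2, and the groups overlapped. The shared Pcdhac2 probe A_55_P1963533 stayed between 4.16 and 4.41 on all 24 arrays, with an OVX effect of 0.01 ± 0.03 (limma adjusted p = 0.751, 95% confidence interval -0.04 to 0.07). Pcdha12, an alternate isoform, had medians of -1.07, -0.90, -0.95 and -0.80 in control, CUMS, OVX and OVX+CUMS mice, with all groups overlapping, and its OVX effect was 0.07 ± 0.08 (limma adjusted p = 0.54).

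In Pcdhb, Pcdhb18 had the next largest OVX difference after Pcdhb9, at 0.12 ± 0.06 (limma adjusted p = 0.119). Pcdhb17, at -0.09 ± 0.04 (limma adjusted p = 0.0681), was the lowest of the cluster. Its level in control mice lay between 0.93 and 1.17 (median 1.05) and in OVX mice between 0.76 and 1.00 (median 0.87). CUMS mice (0.89 to 1.08, median 0.98) and OVX+CUMS mice (0.84 to 1.07, median 0.99) lay in between by median, and all groups overlapped. Scaling arrays by the 75th percentile of detected probes, by quantiles or by the E1A spike-in probes called Pcdhb17 lower for the OVX effect. That call therefore rested on the scaling. Without stress, OVX minus control called it lower with the scaling used throughout (-0.18 ± 0.05, limma adjusted p = 0.0146). The spike-in scaling moved the median OVX difference of all detected probes from 0.04 to -0.09.

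The 2 shared Pcdhg probes both had OVX differences above 0 that missed the threshold after adjustment. For Pcdhga9 A_52_P667913 the medians were 1.54, 1.61, 1.69 and 1.72 in control, CUMS, OVX and OVX+CUMS mice, and the OVX effect was 0.21 ± 0.09 (limma adjusted p = 0.0929). For Pcdhga9 A_55_P1961863, 1653 bases farther along, the medians were 6.38, 6.45, 6.48 and 6.50, and the effect was 0.07 ± 0.03 (limma adjusted p = 0.0584). It was called higher after normexp background correction (0.10, limma adjusted p = 0.00587), without moderation of the spread (adjusted p = 0.022) and in the limma fit over probes detected on all 48 arrays (0.04). With slide as a block A_52_P667913 turned to -0.21 ± 0.18 and A_55_P1961863 stayed at 0.07 ± 0.06 (limma adjusted p = 0.883 and 0.89). All 4 groups overlapped for both.

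**Figure D3:**
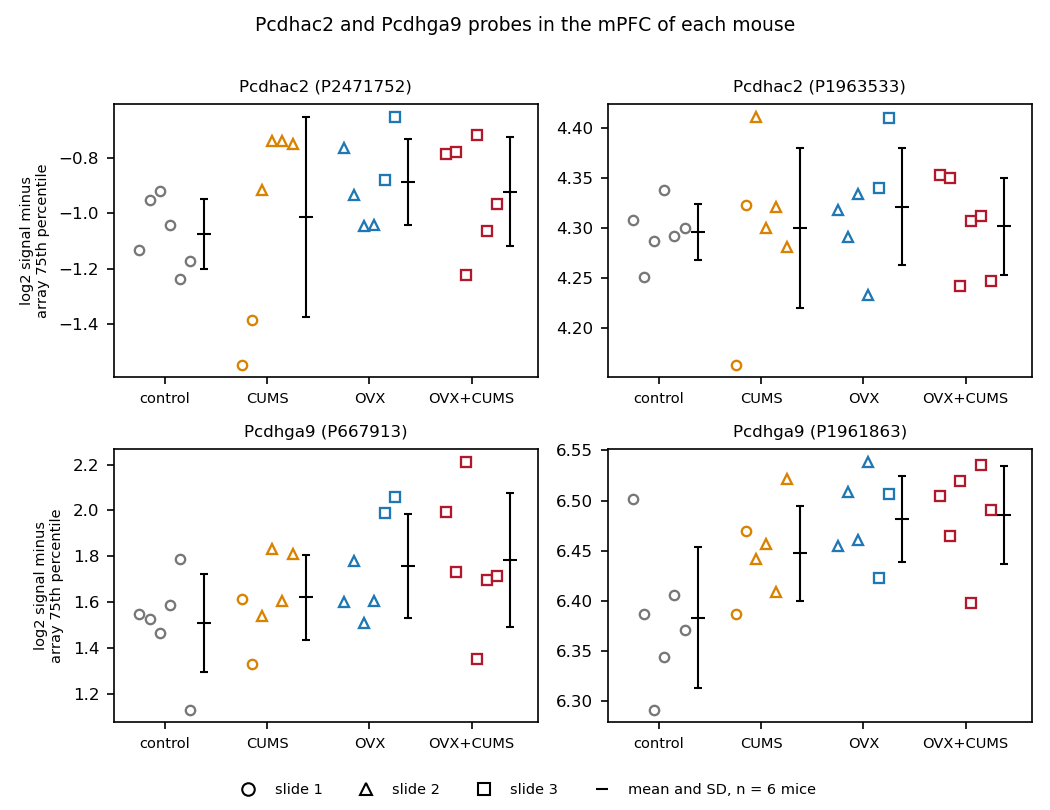
Level in the mPFC of each mouse (log2 intensity minus the array's 75th percentile) of the Pcdhac2 variable-exon probe (P2471752), the shared Pcdha 3′ probe (P1963533) and the shared Pcdhg 3′ probes (P667913 and P1961863), with slides as symbols and the mean and SD of 6 mice in black; each panel has its own scale. The groups overlap in every panel, and the shared Pcdha probe spans only 4.16 to 4.41.

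**Figure D4:**
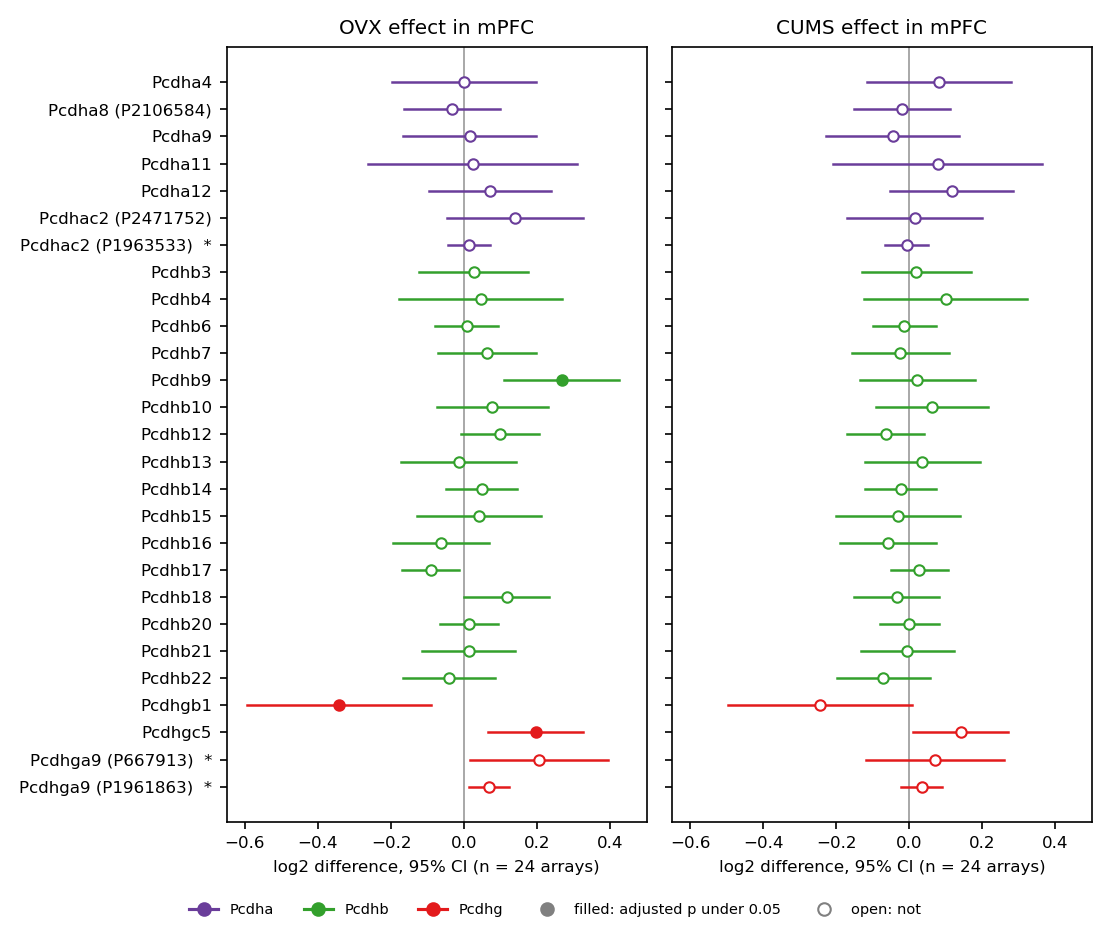
OVX effect and CUMS effect in mPFC of the 27 detected members, as log2 differences with 95% confidence intervals from limma over 24 arrays, coloured by cluster; filled points have an adjusted p under 0.05 and stars mark shared 3′ probes. Pcdhb9, Pcdhgc5 and Pcdhgb1 are filled in the OVX panel and no point is filled in the CUMS panel.

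The CUMS effect asks the same of stressed against unstressed mice, averaged over both surgeries. No clustered protocadherin was called in mPFC (0 of 27, with 1 at an unadjusted p under 0.05 in limma), against 4.19% of all detected probes. The differences ran from -0.24 (Pcdhgb1, which passed the filter only through control mice) to 0.14 (Pcdhgc5), with 13 above 0 and 14 below. Their 95% confidence intervals lay between -0.50 and 0.36 log2 in this fit, which leaves slide out. With slide as a block the CUMS effect of Pcdhac2 A_55_P2471752 was -0.27 ± 0.08 (limma adjusted p = 0.422), outside its interval here of -0.17 to 0.20. The medians by cluster were 0.01 for Pcdha, -0.01 for Pcdhb and 0.05 for Pcdhg, against 0.01 over all detected probes. The largest differences were 0.12 ± 0.08 for Pcdha12 and 0.08 ± 0.10 for Pcdha4 in Pcdha, and 0.10 ± 0.11 for Pcdhb4 and -0.07 ± 0.06 for Pcdhb22 in Pcdhb, with limma adjusted p-values of 0.408, 0.652, 0.619 and 0.513. Pcdhb4 ran from -2.12 to -1.17 and Pcdhb22 from -1.50 to -0.91 over all 24 mice, with overlapping groups. Within slide 1, CUMS minus control called 0 members in limma (2 at an unadjusted p under 0.05), as did OVX+CUMS minus OVX within slide 3 (1). Both comparisons called 0 of all 28358 detected probes, so they could not set the members apart.

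The interaction asks whether CUMS acted differently in ovariectomized and in sham-operated mice. It was called for 0 of 27 members in limma, with 4 at an unadjusted p under 0.05, against 4.49% of all detected probes. Those 4 were Pcdhgb1 (0.63 ± 0.24), Pcdha4 (-0.41 ± 0.19), Pcdhb10 (-0.31 ± 0.15) and Pcdhb17 (0.17 ± 0.08), with limma adjusted p-values of 0.128, 0.194, 0.201 and 0.183. Pcdhgb1 passed the filter only through control mice, so its interaction and its place among the 4 were not independent of that. Pcdha4, an alternate isoform, had medians of -2.18 in control and -1.80 in CUMS mice, and of -1.89 in OVX and -2.11 in OVX+CUMS mice. Its groups overlapped throughout.

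OVX+CUMS mice were then set against control mice directly. Pcdhb9 (0.29 ± 0.11, limma adjusted p = 0.0409), Pcdhgc5 (0.34 ± 0.09, 0.00551) and the shared Pcdhg probe Pcdhga9 A_55_P1961863 (0.10 ± 0.04, 0.0425) were higher in OVX+CUMS mice, and Pcdhgb1 (-0.59 ± 0.17, 0.0116) was lower. The 4 of 27 called compare with 33.4% of all detected probes (20.4% higher and 13% lower). Pcdhgb1 passed the filter only through control mice here too, so its test and its place in the count were not independent of that. The calls share the control arrays with the contrasts above. None of the 7 Pcdha probes was called, at a median difference of 0.08 log2 against 0.06 over all detected probes. These groups lay on different slides throughout, so group and slide cannot be told apart. With slide as a block 0 members and 0 of all 28358 detected probes were called. The Pcdhga9 difference rested on the scaling and turned to -0.16 with the spike-in scaling, and the Pcdhb9 and Pcdhga9 calls were lost in 7 and 11 of the 24 fits that left out 1 array. CUMS minus OVX called 0 of 27 members in limma (3 at an unadjusted p under 0.05), against 0.197% of all detected probes.

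Markers of other cells also differed between the groups in mPFC. Of the 8 detected microglial probes, 6 were higher and 1 lower with OVX, against 30.9% of all detected probes called. Their summed level ran from 5.83 to 5.96 in control mice and from 5.98 to 6.19 in OVX mice. In CUMS mice it ran from 5.81 to 6.18 and in OVX+CUMS mice from 5.95 to 6.24, so CUMS mice overlapped every group. With slide as a block 0 of all detected probes were called. Of the 9 neuronal probes, 2 (Slc17a7 and 1 of the 3 for Rbfox3) were higher and 1 (Tubb3) lower, and the summed level was 8.73 to 8.90 in control and 8.74 to 8.84 in OVX mice. The part of these markers in the protocadherin differences was not tested.

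In blood the same contrasts were read for the 4 detected members. With OVX, Pcdha8 A_55_P2106584 was higher, Pcdhb18 and Pcdhga9 A_55_P1961863 were lower, and Pcdhb12 was not called, so that 3 of 4 were called against 55.1% of all detected blood probes (27.4% higher and 27.7% lower). With CUMS, Pcdha8 A_55_P2106584 was higher and the other 3 were not called, against 48.5% of all detected probes (19.1% higher). The interaction was called for 0 of 4 in limma, with 0 at an unadjusted p under 0.05, against 1.42% of all detected probes. The shares of blood probes called were large for any gene, and the members' counts are to be read against them.

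The Pcdha8 probe A_55_P2106584 ran from -0.29 to 0.13 (median -0.14) in the blood of control mice, from -0.03 to 1.69 (median 0.66) in CUMS mice, from 0.17 to 0.88 (median 0.66) in OVX mice and from 0.77 to 1.33 (median 0.92) in OVX+CUMS mice. Both ovariectomized groups lay wholly above control mice, and CUMS mice were spread widely and overlapped all groups. The OVX effect was 0.45 ± 0.16 (1.37-fold, limma adjusted p = 0.0224) and the CUMS effect 0.65 ± 0.16 (1.57-fold, adjusted p = 0.00396). With slide as a block the limma OVX effect was 0.01 ± 0.33 (adjusted p = 0.996). The second Pcdha8 probe, 209 bases away and listed with Pcdha8 alone, was well above background on 0 of 24 blood arrays. The blood signal of the first probe, listed with transcripts of 4 genes, is therefore not shown to be Pcdha8. In mPFC the first probe differed by -0.03 ± 0.06 with OVX (limma adjusted p = 0.727). The second was not detected there, well above background on 15 of 24 arrays at a median intensity of 24.4. The mPFC signal of the first probe is thus not shown to be Pcdha8 either.

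Pcdhb18 ran in blood from -0.81 to -0.09 (median -0.35) in control mice, from -0.36 to 0.64 (median 0.12) in CUMS mice, from -1.72 to 0.05 (median -0.19) in OVX mice and from -1.12 to -0.24 (median -0.69) in OVX+CUMS mice. Its OVX effect was -0.51 ± 0.19 (0.704-fold, limma adjusted p = 0.0259), and the groups overlapped. The OVX arrays were split by slide, with a mean of -1.53 over the 2 on slide 3 and -0.08 over the 4 on slide 2. Without OVX replicate 5, one of the former, the limma adjusted p was 0.0514.

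The shared Pcdhg probe Pcdhga9 A_55_P1961863 ran in blood from 0.69 to 1.12 (median 0.90) in control mice, from 0.18 to 1.82 (median 1.02) in CUMS mice, from -0.30 to 1.00 (median 0.33) in OVX mice and from -0.10 to 1.01 (median 0.28) in OVX+CUMS mice. Its OVX effect was -0.62 ± 0.17 (0.649-fold, limma adjusted p = 0.00482), with overlapping groups, whereas the same probe lay above 0 with OVX in mPFC. With slide as a block the blood effect was 0.02 ± 0.37 (limma adjusted p = 0.994), and with spike-in scaling -0.28 (0.107). The difference between the tissues was not tested. Pcdhb12 ran from -0.94 to -0.17 over all 24 blood arrays, and the 95% confidence interval of its OVX effect was -0.17 to 0.16.

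**Figure D5:**
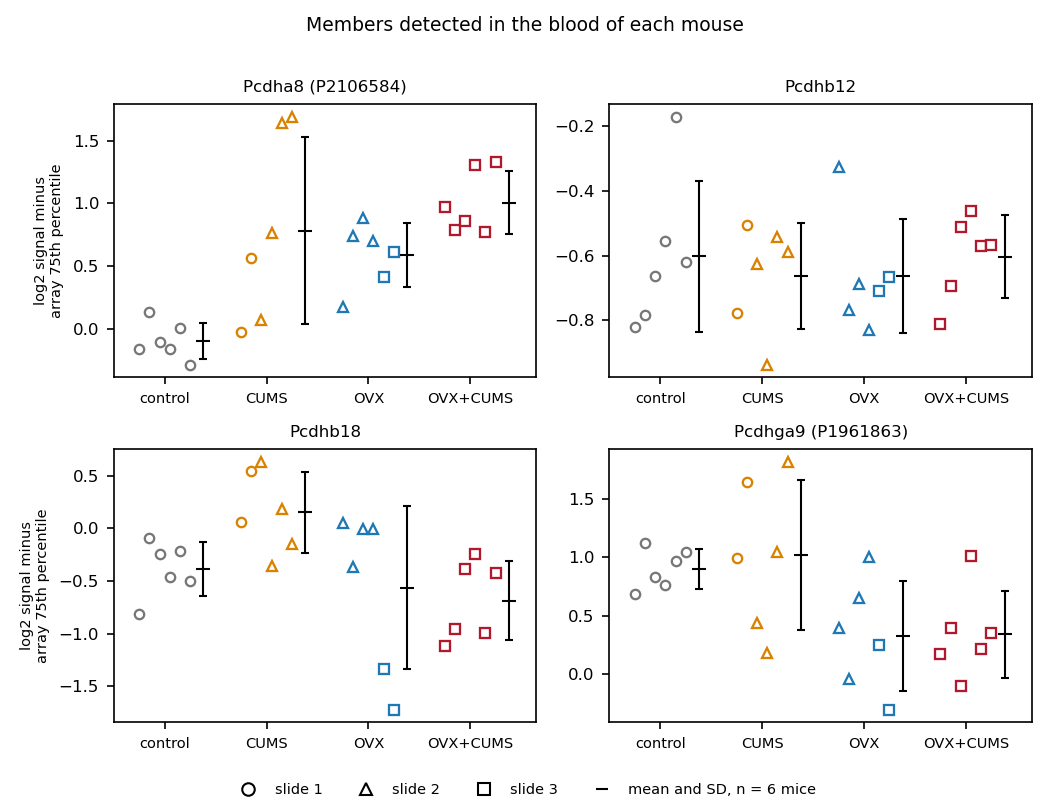
Level in the blood of each mouse (log2 intensity minus the array's 75th percentile) of the 4 members detected in blood, with slides as symbols and the mean and SD of 6 mice in black; each panel has its own scale. The Pcdha8 probe lies higher in both ovariectomized groups than in control mice, and the 2 OVX arrays of slide 3 are the lowest for Pcdhb18.

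Blood cell markers and array brightness differed between the same groups, in fits that leave slide out. The markers are transcript levels and not cell counts. All 5 erythroid probes were lower with OVX, with summed levels of 13.8 to 14.5 in control and 13.2 to 13.9 in OVX mice. Of these 5, 3 were higher with CUMS, while 3 of the 5 B cell probes were higher with OVX. Of all detected blood probes, 55.1% were called with OVX and 48.5% with CUMS. The 75th percentile, to which blood levels are set, had medians of 110 in control, 90.1 in CUMS, 139 in OVX and 125 in OVX+CUMS mice. With the spike-in scaling in its place the median OVX difference of all detected blood probes moved from 0.04 to 0.39 and the median CUMS difference from -0.03 to -0.33. Under it Pcdha8 A_55_P2106584 and Pcdhb12 were called higher with OVX, Pcdhb18 and Pcdhga9 A_55_P1961863 were no longer called, and no member was called for CUMS. With slide as a block the blood OVX effect was called for 0 members and for 0 of all 20767 detected probes. In the CUMS effect with that block, Pcdhb18 (0.76, limma adjusted p = 0.00919) was called in place of Pcdha8 (0.43, adjusted p = 0.0904), against 49.7% of all detected probes. The part of blood composition and brightness in these differences was not tested.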

How the data were processed

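Per the file headers, Feature Extraction 10.7.3.1 made the deposited intensity of each spot (background-subtracted, arbitrary units, mm9 annotation). The authors also deposited log2 values, scaled to each array's 75th percentile. For probes with 1 spot, 100% of these were within 0.001 of those computed here, up to a constant per array. Spots marked as uneven or outlying were left out (98 to 206 of 62976 per array), repeated spots were averaged as log2 values, and the 75th percentile of the array, controls excluded, was taken off. Detection required all 24 arrays of a tissue to be positive and significant, well above background and unmarked, and an intensity over 50 on at least 2. Precision is limited by the number of arrays. limma 3.58.1 in R 4.3.3 was fitted to the 4 groups of a tissue (6 arrays each, from separate mice by the labels) over all detected probes, 28358 in mPFC and 20767 in blood. Tests were two-sided, adjusted by Benjamini-Hochberg and called at 0.05. The OVX and CUMS effects weight both levels of the other factor equally. The fits were tested on simulated data.

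Genes were named from the array's own annotation and matched to the RefSeq table by symbol (35 of 35). Members named are those called in mPFC, the 2 largest OVX and CUMS differences per cluster, the C-type isoforms and those detected in blood. Pcdha11, Pcdhb10, Pcdhb14 and Pcdhb17 were added for their values. From each pathway list up to 3 called genes are named. The members and all gene lists were chosen with earlier results of these data known. Alternatives were normexp correction (offset 50), normalization by quantiles, scaling by detected probes or by E1A spike-in probes, other detection rules, the authors' values, no moderation of the spread, slide or replicate number as a block, values within slides, and leaving out each array. Sequences are not shown.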

Additional observations from a re-analysis of the deposited data

Results flagged for a closer look

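Among the named members, 72 groups of 6 arrays were checked for an array far from the others by Dixon's ratio, which flags about 1 in 20 groups by chance, and 2 were flagged. For Pcdhb9 in mPFC, CUMS replicate 1 had a level of -3.50 while the nearest CUMS mouse had -2.90. Leaving out any 1 array kept the limma OVX effect of Pcdhb9 between 0.20 and 0.29. For Pcdhb12 in blood, OVX replicate 1 had a level of -0.33 while the nearest OVX mouse had -0.66.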

How the results depend on the processing

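The count of members called in mPFC for the OVX effect (3) was 0 with slide as a block, as it was for all detected probes. It was 1 over the 4 members detected on all 48 arrays, where 40.2% of all probes were called. For OVX+CUMS minus control (4) it was 0 with slide as a block (0% of all detected probes) and 9 with E1A spike-in scaling, all lower. That scaling called 37.6% of all detected probes, and only 113 of those 10674 were higher. The count was 2 with the 75th percentile over detected probes (29.6% of all). It was 2 of 38 with no detection filter (15%) and 1 of 4 over probes detected on all 48 arrays (42.3%). Without 1 array it ran from 1 to 4. In blood the OVX count (3) was 10 of 38 with no detection filter, which lets in members not detected in blood. Without the share of all probes under that rule beside it, 10 of 38 says nothing about the members. With slide as a block it was 0, as it was for all detected blood probes. The blood CUMS count (1) was 2 of 38 with no filter, with the same limit, and 0 with spike-in scaling. The replicate numbers do not pair the mice: same-numbered arrays correlated between -0.23 and 0.391 in mPFC. With the number as a block, 2 members were called in mPFC for OVX (Pcdhb9 and Pcdhgc5), against 31% of all detected probes. For OVX+CUMS minus control 3 were called, against 33.6%. In blood 3 were called for OVX and 1 for CUMS, as without the block. The other counts stayed within 1.5 times, but not with the same members for the mPFC OVX effect: normexp called Pcdhb9, Pcdhgc5 and Pcdhga9 A_55_P1961863, and spike-in scaling called Pcdhb17 and Pcdhgb1, both lower. Among values called in either fit, directions turned for OVX+CUMS minus control in Pcdhga9 A_55_P1961863 (-4e-04 with quantile normalization, -0.16 with spike-in scaling), Pcdhac2 A_55_P1963533 (-0.25, called, with spike-in scaling) and Pcdhb9 (-0.066 with slide as a block), and for blood OVX in Pcdhb12 (0.35, called, with spike-in scaling), Pcdhga9 A_55_P1961863 (0.022) and Pcdhb18 (0.61), both with slide as a block. Among values not called in either fit, slide as a block turned OVX+CUMS minus control to -0.71 for Pcdhac2 A_55_P2471752, -0.79 for Pcdha4, -0.35 for Pcdhga9 A_52_P667913 and -0.30 for Pcdha12. The OVX call of Pcdhgb1 was lost without any 1 of CUMS replicates 2, 3, 4 and 6, OVX replicates 1, 3 and 5 and OVX+CUMS replicates 4, 5 and 6 (limma adjusted p up to 0.0685), and without control replicate 1 or 5 the gene was not detected. For OVX+CUMS minus control, Pcdhb9 was lost without any 1 of control replicates 2, 3, 5 and 6 and OVX+CUMS replicates 1, 2 and 4 (limma adjusted p up to 0.0792), and Pcdhga9 A_55_P1961863 without any 1 of control replicates 2 to 6, CUMS replicate 4 and OVX+CUMS replicates 1, 2, 3, 5 and 6 (up to 0.107). When 1 array was left out, the counts ran from 2 to 4 for the mPFC OVX effect and from 2 to 3 for blood OVX. Dim probes limit the 11 members not detected in mPFC: under 2 looser rules 30 members were detected. The cause of these changes was not tested.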

Other observations

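Other genes of the pathway were called in mPFC at shares near or below that of all detected probes (30.9% with OVX, 4.19% with CUMS), and all of these calls were lost with slide as a block. Of 15 probes for 10 non-clustered protocadherins, which lack the cluster organisation and act in adhesion and cell sorting, 2 were higher with OVX and 2 lower. The higher ones were both Pcdh9 probes (0.28 ± 0.08 and 0.19 ± 0.06 log2, limma adjusted p = 0.0116 and 0.0228), and the lower ones were Pcdh11x (-0.27 ± 0.07, 0.00668) and Pcdh1 (-0.19 ± 0.05, 0.0048). Of 23 probes for 18 genes of promoter choice and chromatin, 5 were higher with OVX and 0 lower. Dnmt1, the maintenance DNA methyltransferase, was higher by 0.25 ± 0.04 (limma adjusted p = 0.000107) and was higher with CUMS as well (0.16 ± 0.04, 0.0292). The cohesin subunits Smc1a (0.23 ± 0.04, 0.000431) and Rad21 (0.15 ± 0.03, 0.00167) were higher too. Of 29 probes for cytoplasmic partners and cleavage enzymes, 6 were higher and 3 lower with OVX, among them the receptor tyrosine kinase Ret (-0.22 ± 0.06, limma adjusted p = 0.0136), the kinase Prkca (-0.17 ± 0.06, 0.0305) and the small GTPase Rac1 (0.17 ± 0.03, 0.000415), and Rac1 was the only one called with CUMS (0.12 ± 0.03, 0.0409).

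In blood 2 of the non-clustered protocadherin probes were detected and both were lower with OVX. Of the 19 detected promoter choice and chromatin probes, 13 were higher and 2 lower with OVX, and 13 were lower with CUMS. Of 22 partner and cleavage probes, 5 were higher and 3 lower with OVX, and 3 higher and 3 lower with CUMS. The background was 55.1% and 48.5% of detected blood probes.

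Of the marker lists not yet given, the mPFC OVX effect was called higher for 1 of 10 oligodendrocyte probes, 1 of 9 striatal probes and 1 of 2 B cell probes (the other B cell probe was lower), and for 0 probes of astrocytes (8), oligodendrocyte precursors (2), endothelium (5), choroid plexus (1), erythroid cells (4), T cells (1) and neutrophils (4). Ttr, the defining choroid plexus transcript, was not detected. In blood, 1 of 5 T cell probes was lower with OVX and 4 lower with CUMS, 2 of 5 neutrophil probes were higher with CUMS, and 4 of 5 B cell probes were lower with CUMS. Among blood probes of brain lists, the OVX effect was called lower for 2 of 2 astrocyte, 2 of 6 oligodendrocyte and 3 of 3 striatal probes, higher for 1 of 6 microglial and 1 of 2 endothelial probes, and for 0 of the neuronal (2), oligodendrocyte precursor (1) and choroid plexus (1) probes.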
